A study of Mus musculus with 20 samples.

Results

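The miR-29 family is made up of 3 mature mouse microRNAs (miRNAs), mmu-miR-29a-3p, mmu-miR-29b-3p and mmu-miR-29c-3p (written without the species prefix from here on), each the arm cut from the 3′ side of its hairpin precursor. All 3 were listed in the tables of both cell lines, among the 1063 miRNAs that the tables shared. Small RNA was sequenced while mouse embryonic stem cells were turned into epiblast stem cells (EpiSC), and the study set a female line beside a male line. A miRNA is a short RNA that guides Argonaute proteins to messenger RNAs, mostly through bases 2 to 8 (the seed), and lowers their stability and translation. miR-29 is best known as a repressor of collagen and elastin messages in fibroblasts and muscle. It is also a repressor of the DNA methyltransferases Dnmt3a and Dnmt3b and of the Tet enzymes and Tdg, which act in DNA demethylation. Naive stem cells in 2i, a serum-free medium with inhibitors of MEK and GSK3, are known for low DNA methylation, most of all in female cells, and methylation is regained as cells become primed for differentiation.

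The groups were cells of the female line PGK and cells of the male line E14, sampled in 2i (day 0), 4 and 10 days after the move to EpiSC medium, and then in windows of days 19 to 23 and 27 to 30. EpiSC medium holds the growth factors Activin A and Fgf2 in N2B27, over a fibronectin coat. No genetic change or drug other than the media was labelled. Each of the 10 groups had 2 libraries, named in the labels for differentiation experiments 2 and 3, so 20 libraries were compared. In the late stages the days differed between experiments: PGK cells were taken at days 21 and 29 in experiment 3 and at days 23 and 29 in experiment 2, and E14 cells at days 19 and 30 in experiment 3 and at days 21 and 27 in experiment 2. Each line stands for its sex alone, so sex and line cannot be told apart. In both lines the day 0 library of experiment 3 was titled and dated as day 0 in 2i, but its cell type label was the one given to differentiating cells. The titles of the day 0 libraries of experiment 2 bear a mark that may be a passage number, and those of experiment 3 bear none. Running numbers in the titles also set the libraries of experiment 2 up to day 10 apart from its late windows. What these numbers stand for is not given.

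The sequences show why the family is treated as a unit and where its members part. They are the RefSeq mature sequences (GRCm38.p6), 5′ to 3′, with the seed in capitals.
miR-29a-3p: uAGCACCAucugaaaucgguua
miR-29b-3p: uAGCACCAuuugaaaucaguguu
miR-29c-3p: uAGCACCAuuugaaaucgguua
The seed was the same in all 3, and no other mature mouse miRNA in the RefSeq table carried it. Counted from 1 at the 5′ end, miR-29a-3p and miR-29c-3p differed by 1 substitution, C10U. miR-29c-3p and miR-29b-3p differed by G18A, U21G and A22U, and miR-29b-3p was 23 bases long against 22 for the other members. The 3′ end that sets miR-29b-3p apart is known from human cells to direct it to the nucleus. How reads that fit more than 1 member were assigned is not given in the sources used here, so the split between miR-29a-3p and miR-29c-3p, which rests on 1 base, is uncertain.

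The family comes from 2 clusters. Mir29a (chr6:31062660-31062747, minus strand, GRCm38) and Mir29b-1 (chr6:31063023-31063093, minus strand) lie 275 bases apart on chromosome 6, and in GENCODE M21 the lincRNA gene Gm27019 overlaps the first 2 bases (5′ end) of the Mir29b-1 hairpin on the same strand. Mir29b-2 (chr1:195037040-195037120, plus strand) and Mir29c (chr1:195037547-195037634, plus strand) lie 426 bases apart on chromosome 1, within an exon of the non-coding host gene A330023F24Rik and antisense to the 3′ untranslated region of Cd46, a complement regulator. miR-29b-3p is the same sequence from Mir29b-1 and Mir29b-2, so its counts do not tell the clusters apart.

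The DNA form of the seed site, TGGTGCT, was looked for on the message strand in the longest annotated 3′ untranslated region (3′ UTR) of 11 genes of methylation and matrix. Of 21020 genes with a 3′ UTR, 13.1% held at least 1 such site and 2.85% held the 8-base form TGGTGCTA, which contains the 7-base site. Dnmt3a, a de novo methyltransferase, held 5 sites in 6696 bases, 2 of them of 8 bases, where 46.2% of 3′ UTRs of like length (0.8 to 1.25 times) held at least 1. Dnmt3b, the other de novo methyltransferase, held 1 site of 7 bases in 1331 bases (12.2% of 3′ UTRs of like length). Dnmt3l, their cofactor, and Dnmt1, the maintenance enzyme, held no site in their short 3′ UTRs of 273 and 312 bases.

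Tet1 held 7 sites, Tet2 held 5 and Tet3 held 8, in 3′ UTRs of 7962, 3058 and 5669 bases, where 50.8%, 26.7% and 43.6% of 3′ UTRs of like length held at least 1. Tdg, the glycosylase that removes the oxidised bases Tet enzymes make, held 3 sites (18.9%). Among matrix genes, Eln (elastin) held 3 sites (11.9%), Col1a1 held 1 (13.1%) and Col3a1 held 1 (9.48%). The sites below, given on the message strand with the 7 or 8 site bases in capitals, are the 8-base site nearest the stop codon in each methylation gene that has an 8-base site, the sole Dnmt3b site, and the Col1a1 site as a matrix example.
Dnmt3a, chr12:3911391-3911412, plus strand: ccaggggaggtagcTGGTGCTA
Dnmt3b, chr2:153686613-153686634, plus strand: agagtagcccggcaTGGTGCTc
Tet1, chr10:62806042-62806063, minus strand: tttcttgaaggagaTGGTGCTA
Tet2, chr3:133466173-133466194, minus strand: gtgttaacattaaaTGGTGCTA
Tet3, chr6:83364336-83364357, minus strand: aatagtctaataaaTGGTGCTA
Tdg, chr10:82649663-82649684, plus strand: tcatgcattttccaTGGTGCTA
Col1a1, chr11:94952524-94952545, plus strand: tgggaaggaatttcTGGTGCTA
A match is only the presence of these letters; the messages themselves were not measured in these libraries.

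Library totals were 7112398 to 18031067 counts. Levels are given in CPM, counts per 1e6 of a library size adjusted by the trimmed mean of M values (TMM). The adjusting factors were 0.551 to 1.43. In experiment 2 they were 0.551 to 0.861 up to day 10 and 1.053 to 1.346 in the late windows. In experiment 3 they were 0.838 to 1.210 and 1.193 to 1.427. The state of the cells followed the day labels: all 5 arms of the miR-302 cluster, markers of primed cells, were called higher at every later stage than at day 0 in both lines. The summed level of these 5 arms was 160.8 to 556.7 CPM in the 4 day 0 libraries and at least 8707 CPM in each of the 16 later ones. The day 0 libraries of experiment 3, whose cell type label differs, had 183.8 CPM (PGK) and 556.7 CPM (E14) of these arms, and 261100 and 245600 CPM of the 6 miR-290 cluster arms that mark naive cells.

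miR-29a-3p was the most abundant member in all 20 libraries, with 1494 to 12013 counts, and made up 64.1 to 87.2% of the family (median 80.2%). It ranked between 103 and 225 among all miRNAs of a library. miR-29c-3p made up 10.3 to 30.3% (median 15.6%), and miR-29b-3p, with 82 to 360 counts, made up 2.47 to 5.57% (median 4.14%). The order miR-29a-3p, miR-29c-3p, miR-29b-3p held in each of the 20 libraries. The mature RNAs are of nearly the same length, so the levels compare per molecule counted, but how well each is captured in a small RNA library was not measured.

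The family differed most between libraries at day 0, where experiments 3 and 2 stood apart. In PGK cells in experiment 3, miR-29a-3p stood at 780.2 CPM at day 0, 361.9 at day 4, 290.6 at day 10, 350.6 in the window of days 19 to 23 and 331.1 in that of days 27 to 30. In PGK cells in experiment 2 it stood at 188.2 CPM at day 0, 464.8 at day 4, 219.8 at day 10, 183 in the window of days 19 to 23 and 273.1 in that of days 27 to 30. The naive cells of experiment 3 thus held the highest PGK level of the family's main member, and those of experiment 2 almost the lowest.

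The male line showed the same split. In E14 cells in experiment 3, miR-29a-3p stood at 866 CPM at day 0, 383.3 at day 4, 328.3 at day 10, 294.4 in the window of days 19 to 23 and 275.7 in that of days 27 to 30. In E14 cells in experiment 2 it stood at 136.5 CPM at day 0, 296.9 at day 4, 229.4 at day 10, 257.9 in the window of days 19 to 23 and 206.1 in that of days 27 to 30. Both lines therefore had their highest miR-29a-3p level at day 0 of experiment 3. The 16 later libraries ranged only from 183 to 464.8 CPM, a 2.54-fold span, and both day 0 libraries of experiment 3 lay above it.

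**Figure D1:**
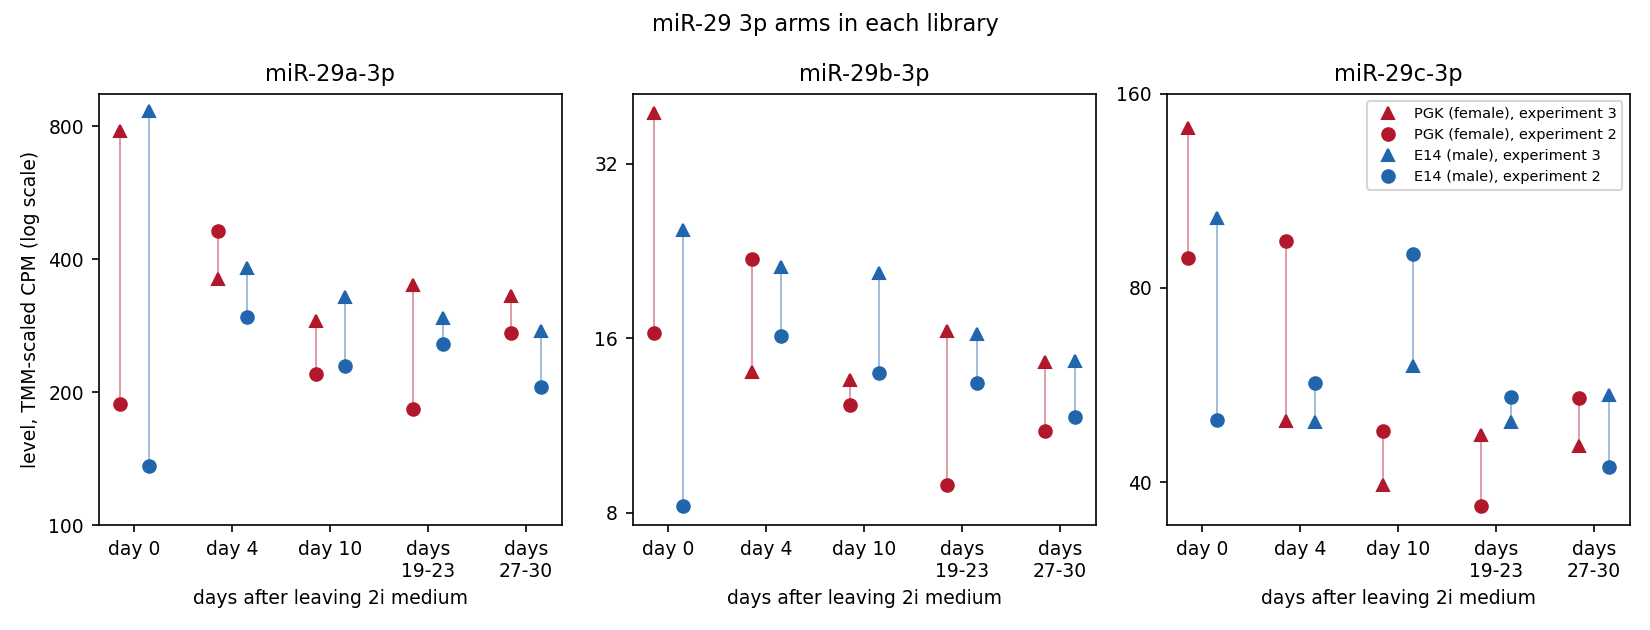
Levels of the 3 miR-29 arms in each library, as TMM-scaled CPM on a log axis, by stage (PGK left, E14 right; triangles are experiment 3, circles experiment 2, and a line joins the 2 libraries of a group). At day 0 miR-29a-3p stood at 780.2 and 866 CPM in experiment 3, against 188.2 and 136.5 CPM in experiment 2, while the later libraries lay between 183 and 464.8 CPM.

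At day 0 the level in experiment 3 was 4.145 times that in experiment 2 for miR-29a-3p in PGK cells and 6.345 times in E14 cells. For miR-29b-3p the day 0 ratios were 2.395 in PGK and 2.99 in E14, and for miR-29c-3p they were 1.589 and 2.05. All 3 members were higher in experiment 3 in both lines. Of all 813 miRNAs tested, 1.85% were at least 4 times as high in experiment 3 in both lines at day 0, miR-29a-3p among them, and 7.87% at least 2 times, which takes in miR-29b-3p as well.

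This difference was tested in an edgeR quasi-likelihood fit with a term for the experiment and a term for the experiment at day 0, a test chosen after the levels were seen, with Benjamini-Hochberg adjustment over all 813 miRNAs. At day 0 miR-29a-3p was higher in experiment 3 than in experiment 2 by 2.36 ± 0.33 (log2, SE; adjusted p = 0.00266), and miR-29b-3p by 1.42 ± 0.37 (adjusted p = 0.0429). miR-29c-3p had a log2 difference of 0.85 ± 0.34 and did not pass (adjusted p = 0.16). So 2 of 3 members were called, where 5.04% of all miRNAs were called in either direction and 2.46% as higher; the median log2 difference was 1.42 for the members and 0.02 for all miRNAs.

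Over the later stages the same experiments were nearer to each other. The log2 difference between experiment 3 and experiment 2 was 0.34 ± 0.16 for miR-29a-3p (adjusted p = 0.251), 0.30 ± 0.18 for miR-29b-3p (adjusted p = 0.368) and -0.20 ± 0.17 for miR-29c-3p (adjusted p = 0.516) in the edgeR fit, where 0.984% of all miRNAs were called, 0.123% as higher. For miR-29a-3p the excess of the day 0 difference over the later one was 2.01 ± 0.36 (log2, adjusted p = 0.0159), 1 of 11 such calls among 813 miRNAs (1.35%, or 0.861% in that direction). The excess was 1.12 ± 0.41 for miR-29b-3p (adjusted p = 0.183) and 1.05 ± 0.39 for miR-29c-3p (adjusted p = 0.188), neither called.

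These calls rest on 4 day 0 libraries. The fit counts the 2 lines as separate. Yet over all tested miRNAs, deviations from the group mean at day 0 had r = 0.442 between PGK and E14 cells. The p-values may therefore be too small. In the edgeR fit without the E14 day 0 library of experiment 3 the day 0 difference of miR-29a-3p was 1.89 (adjusted p = 0.0538), and without that of experiment 2 it was 1.86 (adjusted p = 0.0604). The miR-29b-3p call was lost in 16 of 20 fits that left out a library (1.07 to 1.72 over all 20), each day 0 library among them, and with no filter on low counts. The excess of miR-29a-3p at day 0 lost its call in 9 of those 20 fits (1.45 to 2.40 over all 20), with adjusted p of 0.128 to 0.173 without a day 0 library and of 0.0518 to 0.0554 without a PGK library of day 10 (experiment 2) or days 27 to 30 (either experiment) or an E14 library of days 19 to 23 (either experiment).

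Markers moved at day 0 too. The summed level of 6 miR-290 cluster arms was 261100 CPM (PGK) and 245600 CPM (E14) in experiment 3, against 190400 and 185700 CPM in experiment 2, and 1 of the 6, miR-292-3p, was called higher. Most of these sums was miR-295-3p, with day 0 means of 171700 CPM (PGK) and 170700 CPM (E14). In PGK cells all 6 arms were higher in experiment 3. In E14 cells miR-290-3p and miR-291a-3p were lower, at 0.6134 and 0.9747 times their level in experiment 2, and the other arms were higher. The 6 mesenchymal miRNAs, which include the fibroblast and smooth muscle miRNAs miR-143-3p and miR-145a-5p, summed to 6338 CPM (PGK) and 5751 CPM (E14) in experiment 3, against 11080 and 9408 CPM in experiment 2. Of these sums miR-143-3p made up 3654 and 2851 CPM in experiment 3, against 8746 and 6691 CPM in experiment 2. The list did not move as one: its median log2 difference was 0.04, and miR-199a-3p, at 44.48 and 345.2 CPM in experiment 3, against 23.99 and 120.9 CPM in experiment 2, had a higher value in both lines without being called (1.21, edgeR adjusted p = 0.308). Of the muscle list, miR-206-3p was at 0 counts in all 4 day 0 libraries, miR-133a-3p was called higher in experiment 3 with only 59 (PGK) and 27 (E14) counts, against 11 and 6, and the list summed to 7.286 and 2.379 CPM, against 1.257 and 0.5481 CPM.

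The endoderm list, in which miR-122-5p was at 0 or 1 count, summed to 1157 CPM (PGK) and 1708 CPM (E14) in experiment 3, against 2164 and 3623 CPM in experiment 2. The blood list summed to 496.8 and 80.09 CPM, against 681.5 and 165.5 CPM, and the neural list to 162.9 and 210.1 CPM, against 254.8 and 311.4 CPM. The mesenchymal, endoderm, blood and neural sums were lower in experiment 3, but not every member of the mesenchymal and blood lists was lower in both lines. None of the members of these 4 lists was called between the experiments at day 0. In bulk RNA, fewer cells of a type and less RNA per cell cannot be told apart, and the part of these markers in the day 0 difference was not tested.

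Because the day 0 libraries differed, the direction of change during differentiation depended on the experiment. Within experiment 3 miR-29a-3p was below day 0 in all 8 later libraries, with log2 changes of -1.65 to -1.11 (median -1.32). Within experiment 2 it was above day 0 in 7 of 8, with changes of -0.04 to 1.30 (median 0.67). The ranges do not overlap, but how many other miRNAs show the same was not counted. The later libraries of a line and experiment share the same day 0 library. These counts thus largely restate the day 0 difference and are not separate observations. For the family's main member every later library was lower than day 0 in experiment 3 and nearly every one higher in experiment 2, in both lines.

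For miR-29b-3p the later libraries of experiment 3 were below day 0 in 8 of 8 cases (-1.53 to -0.21, median -1), and those of experiment 2 were above it in 5 of 8 (-0.88 to 0.97, median 0.47). For miR-29c-3p the changes were -1.83 to -0.76 in experiment 3, again 8 of 8 below, and -1.27 to 0.85 in experiment 2, with 4 of 8 above. For these members, too, it was not counted how many other miRNAs show the same. In experiment 2, E14 cells were above day 0 in 4 of 4 libraries for miR-29b-3p and in 3 of 4 for miR-29c-3p, and PGK cells in 1 of 4 for each, at day 4. The 4 libraries of a line share 1 day 0 library and are not separate observations. With both experiments pooled, no member was called in 12 edgeR tests of the difference of changes between lines.

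**Figure D2:**
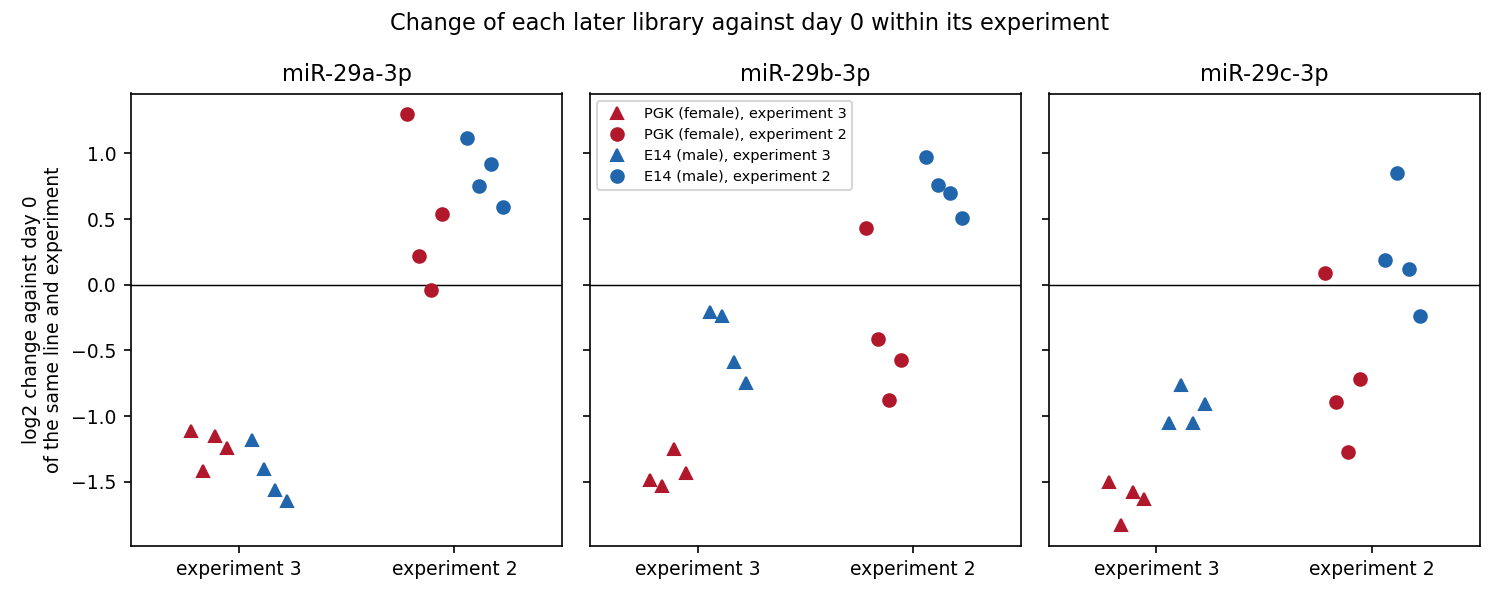
Log2 change of each later library against day 0 of the same line and experiment, for the 3 members (within each colour, points run from day 4 at the left to days 27 to 30 at the right). In experiment 3 all 8 points of each member lie below 0; in experiment 2, 7 of 8 points of miR-29a-3p lie above it.

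With both experiments pooled, each stage was set against day 0 of its line in edgeR (all 20 libraries in 1 fit, adjustment over 813 miRNAs). miR-29c-3p fell in PGK cells from day 10 onward, and none of the other 21 of 24 member tests was called. In PGK cells of experiment 3, miR-29c-3p stood at 141.3 CPM at day 0, 49.84 at day 4, 39.71 at day 10, 47.34 in the window of days 19 to 23 and 45.55 in that of days 27 to 30. In PGK cells of experiment 2 it stood at 88.89 CPM at day 0, 94.67 at day 4, 48.11 at day 10, 36.73 in the window of days 19 to 23 and 53.96 in that of days 27 to 30. From day 10 on, all 6 PGK libraries lay below both day 0 libraries, but how many other miRNAs show the same was not counted.

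The log2 fold change of miR-29c-3p in PGK cells was -1.39 ± 0.43 at day 10 (adjusted p = 0.0188), -1.45 ± 0.43 at days 19 to 23 (adjusted p = 0.0141) and -1.21 ± 0.43 at days 27 to 30 (adjusted p = 0.0333) in edgeR. At day 4 it was -0.67 ± 0.43 (adjusted p = 0.22), where 39.1% of all miRNAs were called. As a share of all miRNAs, 18.8% were called lower in PGK cells at day 10, 19.3% at days 19 to 23 and 19.4% at days 27 to 30, or 40.1%, 40.5% and 43.5% in either direction, so 1 member of 3 is near that background. The median log2 fold change of the members was -1.10, -1.12 and -1.11 at these stages, where that of all miRNAs was 0.00, 0.06 and 0.01.

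These calls were lost without the PGK day 0 library of experiment 3, where the log2 fold changes at day 10, days 19 to 23 and days 27 to 30 were -1.15, -1.19 and -0.96 (edgeR adjusted p = 0.0819, 0.0647 and 0.13). They were also lost in the fits that left out a PGK library of the stage itself: -1.57 and -1.33 at day 10 without experiment 2 or 3, -1.31 at days 19 to 23 without experiment 2, and -1.35 and -1.17 at days 27 to 30 without experiment 2 or 3. Without both day 0 libraries of experiment 3, which leaves 1 library in each day 0 group, the values were -1.15, -1.23 and -1.05. On library totals alone the values were -1.15, -0.93 and -0.81, and only day 10 was called. That scaling moved the median of all miRNAs to 0.29, 0.58 and 0.42, and relative to it miR-29c-3p stood at -1.43, -1.51 and -1.22.

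In E14 cells no change of miR-29c-3p from day 0 was called. Its levels in experiment 3 were 102.7 CPM at day 0, 49.69 at day 4, 60.63 at day 10, 49.6 in the window of days 19 to 23 and 54.57 in that of days 27 to 30. In experiment 2 they were 50.06, 57.05, 90.34, 54.3 and 42.29 CPM at the same stages. The later libraries of experiment 3 were all below its day 0 library, by log2 values of -1.05, -0.76, -1.05 and -0.91, and those of experiment 2 lay on both sides of its day 0 library, at 0.19, 0.85, 0.12 and -0.24. The log2 fold changes were -0.52, -0.02, -0.56 and -0.66 at the 4 later stages, each with an SE of 0.42, and none was called in edgeR, where 43.4%, 33.7%, 34.3% and 40.7% of all miRNAs were.

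miR-29a-3p was not called in any of the 8 comparisons with day 0. Its log2 fold changes in PGK cells were -0.23, -0.92, -0.86 and -0.68 from day 4 to days 27 to 30, and in E14 cells -0.56, -0.85, -0.86 and -1.06, with SEs of 0.68 to 0.69 and adjusted p of 0.24 to 0.82 in edgeR. The intervals are wide: at day 10 the 95% interval was -2.39 to 0.55 in PGK cells and -2.31 to 0.62 in E14 cells. Without both day 0 libraries of experiment 3, all 8 values turned positive (0.30 to 1.11). Without both of experiment 2, all 8 were negative (-1.93 to -1.33), with an SE of 0.43. In these fits each day 0 group held 1 library, so the spread between day 0 libraries was left out. No conclusion is drawn from calls in these fits.

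miR-29b-3p stood in PGK cells of experiment 3 at 39.15 CPM at day 0 and at 13.98, 13.53, 16.48 and 14.58 CPM at the 4 later stages. In PGK cells of experiment 2 it stood at 16.35 CPM at day 0 and at 21.96, 12.29, 8.911 and 11.05 CPM. E14 cells had 24.58 CPM at day 0 and 21.23, 20.77, 16.28 and 14.61 CPM later in experiment 3. In experiment 2 they had 8.222 CPM at day 0 and 16.13, 13.94, 13.37 and 11.68 CPM later. Both day 0 libraries of PGK lay above the PGK libraries from day 10 on, except that 16.48 CPM at days 19 to 23 of experiment 3 exceeded the lower of them; in E14 cells the day 0 libraries held both the highest and the lowest value. The log2 fold changes were -1.12 to -0.63 in PGK cells and -0.32 to 0.18 in E14 cells, with SEs of 0.53 to 0.54, and none was called in edgeR (adjusted p of 0.104 to 0.925).

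**Figure D3:**
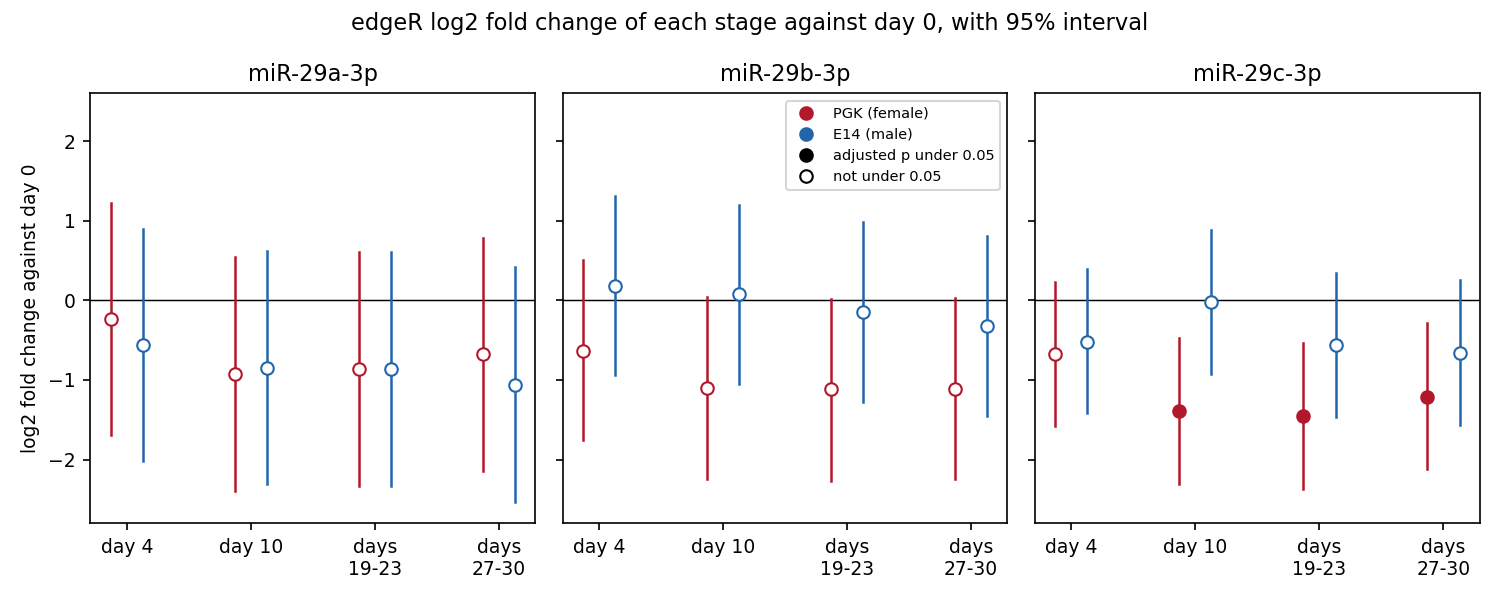
edgeR log2 fold change of each stage against day 0 for the 3 members, with 95% intervals (PGK left, E14 right; filled points have an adjusted p under 0.05). The 3 filled points are miR-29c-3p in PGK cells at day 10 (-1.39), days 19 to 23 (-1.45) and days 27 to 30 (-1.21).

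By mean level, the stages of PGK cells stood in the order day 0 (484.2 ± 418.6 CPM, SD, n = 2), day 4 (413.4 ± 72.75), days 27 to 30 (302.1 ± 40.97), days 19 to 23 (266.8 ± 118.5) and day 10 (255.2 ± 50.05) for miR-29a-3p. In E14 cells the order was day 0 (501.2 ± 515.8 CPM, SD, n = 2), day 4 (340.1 ± 61.1), day 10 (278.8 ± 69.92), days 19 to 23 (276.2 ± 25.82) and days 27 to 30 (240.9 ± 49.22). The SD at day 0 is about as large as the mean. From each stage to the next, none of the 18 member tests was called in edgeR (0 of 18 at an unadjusted p under 0.05, and 0 of 18 called in DESeq2). The largest of these steps were from day 4 to day 10 in PGK cells, with log2 fold changes at day 10 of -0.72 ± 0.43 for miR-29c-3p and -0.70 ± 0.69 for miR-29a-3p, where 6.52% of all miRNAs were called; in E14 cells 8.12% were called at that step, and at later steps at most 0.369% in PGK and 0.246% in E14 cells.

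Between the lines no member was called at any stage (0 of 18 tests in edgeR, 0 of 18 at an unadjusted p under 0.05, 0 of 18 in DESeq2). Over all stages the log2 difference of PGK from E14 was 0.08 ± 0.31 for miR-29a-3p, 0.00 ± 0.24 for miR-29b-3p and -0.00 ± 0.19 for miR-29c-3p, where 18.5% of all miRNAs were called. At day 0, when female stem cells are known for lower DNA methylation than male ones, the values were -0.05 ± 0.68, 0.75 ± 0.53 and 0.59 ± 0.42, and 8.73% of all miRNAs were called, or 5.04% at day 4. The largest single difference was that of miR-29c-3p at day 10, -0.78 ± 0.43 (adjusted p = 0.513).

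The difference of the changes between lines was tested as an interaction, since miR-29c-3p passed the threshold in PGK cells only. At day 10 its change was lower in PGK than in E14 cells by a log2 difference of -1.37 ± 0.60, which had an unadjusted p of 0.0373 and an adjusted p of 0.367 in edgeR. At days 19 to 23 and days 27 to 30 the difference was -0.90 ± 0.60 and -0.55 ± 0.60. No member was called in these 12 tests by edgeR or by DESeq2 (1 of 12 at an unadjusted p under 0.05), and at most 0.369% of all miRNAs were called at any stage. A fall of miR-29c-3p particular to the female line was therefore not shown.

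The members moved together to differing degrees. Over the 20 libraries, Pearson's r of the log2 levels was 0.870 for miR-29a-3p with miR-29b-3p, 0.735 for miR-29b-3p with miR-29c-3p and 0.589 for miR-29a-3p with miR-29c-3p. In the 16 libraries after day 0 the same pairs had r of 0.837, 0.525 and 0.384. These are descriptions over libraries that share stages, lines and scaling. The pair with the weakest relation is the pair whose sequences differ by 1 base and whose genes lie on different chromosomes.

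**Figure D4:**
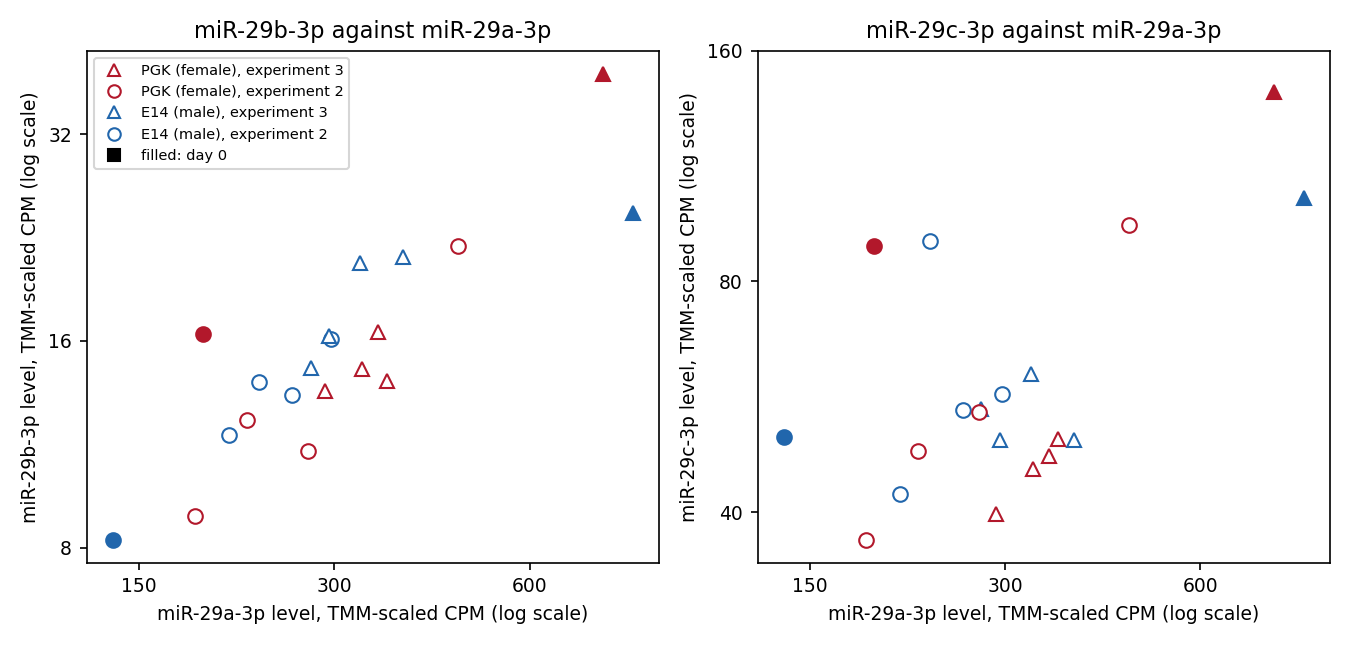
Levels of miR-29b-3p (left) and miR-29c-3p (right) against miR-29a-3p in the 20 libraries, as TMM-scaled CPM on log axes (filled points are day 0; triangles are experiment 3, circles experiment 2). Pearson's r of the log2 levels was 0.870 on the left and 0.589 on the right, and the day 0 libraries of experiment 3 sit apart at the upper right.

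The ratio of miR-29a-3p to miR-29c-3p was higher in experiment 3 than in experiment 2 at every stage in both lines. The gap was widest at day 0 in each line and small at the last stage in E14 cells (5.05 against 4.87 times). Whether the gap in this ratio at day 0 exceeded that at later stages was not tested. miR-29a-3p was 5.52 times miR-29c-3p in PGK cells and 8.44 times in E14 cells at day 0 of experiment 3, against 2.12 and 2.73 times in experiment 2. At the 4 later stages it was 7.26, 7.32, 7.41 and 7.27 times miR-29c-3p in PGK cells of experiment 3, against 4.91, 4.57, 4.98 and 5.06 times in experiment 2. In E14 cells it was 7.71, 5.41, 5.94 and 5.05 times in experiment 3, against 5.2, 2.54, 4.75 and 4.87 times in experiment 2. At day 0 it was 19.9 and 35.2 times miR-29b-3p (PGK and E14) in experiment 3, against 11.5 and 16.6 times in experiment 2. These ratios are taken within a library and do not depend on its scaling. Later libraries had a mean log2 ratio of miR-29c-3p to miR-29b-3p of 1.85 ± 0.35 (SD, n = 16), against 2.24 ± 0.35 at day 0 (n = 4), a difference of -0.39 (two-sided exact permutation test within lines, p = 0.0691, adjusted over 6 ratio tests p = 0.415). With labels permuted only among libraries of the same line and experiment, an alternative chosen after seeing the data, the same difference had p = 0.0048 (adjusted over the 6 tests p = 0.0288, exact permutation test), and 15 of 16 later libraries lay below the day 0 library of their line and experiment. Later libraries of a line and experiment share that day 0 library, so the 16 are not separate observations. With each of the 20 libraries left out in turn, the permutation test within experiment gave an adjusted p of 0.012 to 0.48. The call held in 12 of these 20 tests. It was lost without the PGK day 0 library of either experiment, the E14 day 0 library of experiment 2, or any of 5 later libraries of experiment 3: those of PGK at day 10 and in both late windows, and those of E14 at day 10 and days 19 to 23. The other 5 ratio tests, of later stages against day 0 or PGK against E14, were called by neither permutation.

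The opposite arms of the same hairpins, which are mostly degraded as passenger strands, were scarce. miR-29a-5p had 8 to 86 counts, and its highest counts were 69 in PGK cells and 86 in E14 cells at day 0 of experiment 3, against 22 and 18 at day 0 of experiment 2. Its log2 difference between the experiments at day 0 was 1.86, not called (edgeR adjusted p = 0.0779). The order at day 0 was thus that of miR-29a-3p from the same hairpin. miR-29b-1-5p and miR-29b-2-5p, which do tell the clusters apart, had 0 to 8 and 0 to 14 counts, and miR-29c-5p had 2 to 17, too few to compare the clusters. miR-29b-1-5p and miR-29c-5p did not pass the filter on low counts, and the other passenger arms were not called against day 0 in any stage.

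The miRNAs most like the summed family over the 20 libraries, by Pearson's r of log2 levels among 330 miRNAs averaging at least 50 CPM, were miR-292-3p (r = 0.725), miR-294-5p (0.702), miR-30b-5p (0.656), miR-15a-5p (0.654) and miR-294-3p (0.637). miR-292-3p, miR-294-5p and miR-294-3p come from the miR-290 cluster, the main miRNA locus of naive stem cells. By line, miR-292-3p had r of 0.820 in PGK and 0.633 in E14 cells, and miR-294-5p 0.794 and 0.614. All 5 had their highest level of each line at day 0 of experiment 3: miR-292-3p stood there at 25920 CPM (PGK) and 15710 CPM (E14), against 10760 and 7698 CPM at day 0 of experiment 2. Without the day 0 libraries r was 0.601 for miR-292-3p, 0.704 for miR-294-5p, 0.552 for miR-15a-5p, 0.613 for miR-294-3p and 0.203 for miR-30b-5p (n = 16). By rank the likeness was weaker: over the 20 libraries Spearman's rho was 0.501 for miR-292-3p, 0.513 for miR-294-5p, 0.447 for miR-294-3p, 0.350 for miR-15a-5p (0.139 in E14 cells) and 0.220 for miR-30b-5p. miR-15a-5p thus ranked 33 and miR-30b-5p 75 of the 330.

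Other miRNAs known to repress enzymes of DNA methylation or demethylation, or of linked chromatin marks, had 3 or 4 of 9 members called lower than at day 0 at each later stage in each line. The list held miR-22-3p, miR-26a-5p, miR-26b-5p, miR-101a-3p, miR-101b-3p, miR-143-3p, miR-148a-3p, miR-148b-3p and miR-152-3p. In PGK cells 4, 3, 4 and 3 of 9 were called lower than at day 0 at the 4 later stages and none higher (edgeR), with median log2 fold changes of -0.51, -0.75, -0.97 and -0.91. In E14 cells 3, 3, 4 and 4 of 9 were called lower, and 1 was called higher, miR-22-3p at day 10 (1.18, adjusted p = 0.0406); the medians were -0.84, -0.79, -1.14 and -1.32. With the replicate block, 5 of 9 were called lower in E14 cells at day 10. Leaving out a library gave counts of 2 to 5 in all comparisons but PGK cells at day 4, where 1 of 9 was called without the day 4 library of experiment 3; at days 19 to 23 the PGK count was 2 without either library of that stage or the day 0 library of experiment 2. As a share of all miRNAs, those called lower were 14.6%, 18.8%, 19.3% and 19.4% in PGK cells and 18.3%, 17%, 18.5% and 21.2% in E14 cells.

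The lowest values of that list were those of miR-143-3p, also a mesenchymal marker, at day 4 in E14 cells (-3.51 ± 0.77, adjusted p = 0.00257) and at day 10 in PGK cells (-3.00 ± 0.76, adjusted p = 0.0055) in edgeR. miR-101a-3p, which targets the histone methyltransferase Ezh2, fell in all 8 comparisons (-2.61 to -1.81), as did miR-26a-5p (-1.94 to -1.24). The highest value in PGK cells was that of miR-26b-5p at day 10, 0.56 (adjusted p = 0.155). None of the 9 was called between the experiments at day 0, where 2 of the 3 miR-29 members were and where the list's median log2 difference was -0.33; the difference of that list from miR-29 was not itself tested.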

How the data were processed

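The authors deposited, for each line, small RNA counts per miRNA, with the same counts divided by size factors (a signal) and log2 values made from them. CASAVA 1.8.2, DESeq2 and the mouse build GRCm38 (mm10) are named in the submitters' processing notes, with no aligner, annotation release or rule for reads that map to several miRNAs. The deposited signal was used only in an alternative for the ratios, and the log2 tables not at all.

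Of 1063 miRNAs in both tables, 813 passed filterByExpr. edgeR 4.0.16 (R 4.3.3) fitted quasi-likelihood models to 10 groups of 2 libraries with TMM scaling; a call is a Benjamini-Hochberg adjusted p under 0.05. The scripts were tested on simulated data. DESeq2 1.42.0 was an alternative. The depth puts 3 counts at 0.166 to 0.422 CPM of the library total. The labels' experiment names pair libraries of a line. Deviations from the group mean had a median correlation of 0.077 between stages of the same line. Between lines the median was 0.393 at the same stage and 0.121 at other stages. No separate cultures beyond these are labelled, so p-values measure the spread between libraries, which may be technical.

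The members and lists were chosen with earlier results of these data known. Named are the 3 members, their opposite arms, the 5 most correlated miRNAs, and from lists the highest and lowest values. The names miR-22-3p, miR-101a-3p, miR-26a-5p, miR-290-3p, miR-291a-3p, miR-292-3p, miR-295-3p, miR-199a-3p and miR-133a-3p were picked after their values were seen.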

Additional observations from a re-analysis of the deposited data

Results flagged for a closer look

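The change of miR-29a-3p from day 0 differed between the differentiation experiments by a test of the difference itself. The day 0 level in experiment 3 exceeded that in experiment 2 by 2.01 ± 0.36 (log2, SE) more than at the later stages (edgeR adjusted p = 0.0159, seen in both lines). The lines may not be independent here, since their day 0 libraries deviated together (r = 0.442 over all tested miRNAs). The test was chosen after the levels were seen, and the call was lost in 9 of 20 fits that left out a library, each of the 4 day 0 libraries among them (1.45 to 2.40). No member met the rule for a sample far from its group, since groups of 2 are not tested.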

How the results depend on the processing

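Under the 8 alternatives of scaling, filter, replicate block, tool or line that kept every library, 543 of 546 member values of the stage and line comparisons stayed on their side of the threshold, and 65 uncalled values changed sign. On library totals miR-29c-3p in PGK cells was no longer called at days 19 to 23 (-0.93) and days 27 to 30 (-0.81), leaving 1 call in place of 3; among miRNAs averaging 10 CPM or more it was also called at day 4 (-1.03). Between experiments, with no filter, the day 0 difference of miR-29b-3p was 1.45, not called. The replicate block left the 3 calls of miR-29c-3p in place, with -1.39 at day 10 (edgeR adjusted p = 0.019), and changed no other member call against day 0. That block is a constant shift over all stages, so it cannot take up a difference between experiments limited to day 0. Permuting the ratios within experiment, chosen after seeing the data, gave 1 call of 6 in place of 0. Of the DNA methylation list, 5 in place of 3 were called lower at day 4 in E14 cells (DESeq2, RLE scaling or 10 CPM) and at days 27 to 30 in PGK cells (DESeq2).

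Leaving out each library in turn gave 0 to 7 calls against day 0, where all libraries gave 3: 7 without the E14 day 0 library of experiment 2, and 0 without the PGK day 0 library of experiment 3. miR-29c-3p in PGK cells ranged from -1.36 to -0.28 at day 4, -1.63 to -1.15 at day 10, -1.71 to -1.19 at days 19 to 23 and -1.50 to -0.96 at days 27 to 30, and in E14 cells at day 4 from -1.27 to -0.17. miR-29a-3p in E14 cells ranged from -1.67 to 1.06, -1.72 to 0.99, -1.66 to 0.91 and -1.88 to 0.71 over the 4 later stages, its sign turning without the E14 day 0 library of experiment 3. Between experiments 0 to 3 of 9 values were called, where all libraries gave 3: the day 0 difference ranged from 1.86 to 2.81 for miR-29a-3p and 1.07 to 1.72 for miR-29b-3p, and the excess of miR-29a-3p at day 0 from 1.45 to 2.40. A group left with 1 library borrows its spread from the rest.

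Alternatives chosen after seeing the data left out the day 0 libraries of an experiment in both lines. The spread between day 0 libraries was then left out, so the counts of calls depend on which library was kept. The share of all miRNAs called in these fits is not given here, and no conclusion is drawn from the calls. Without those of experiment 2, 18 of 24 values were called, all lower. For miR-29a-3p they were -1.33, -1.76, -1.70 and -1.58 in PGK cells and -1.75, -1.73, -1.72 and -1.93 in E14 cells; for miR-29b-3p -1.54, -1.74, -1.77 and -1.82 in PGK cells. The new calls of miR-29c-3p were -1.40 at day 4 in PGK cells, and -1.35 at day 4 and -1.17 at days 27 to 30 in E14 cells. Without those of experiment 3, miR-29a-3p in E14 cells turned to 1.10, 1.11 and 0.90 at day 10, days 19 to 23 and days 27 to 30, and the calls remained 3. What sets the day 0 libraries apart, the differences in titles and cell type labels included, was not tested. The 82 to 360 counts behind miR-29b-3p limit its precision.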
